A study of Mus musculus with 14 samples.

Results

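The genes of the mitochondrial ribosomal proteins were followed in the brains of mice with amyloid pathology that drank water with or without CP2. They were taken by name, as every gene whose symbol is Mrpl or Mrps followed by a number, with pseudogenes left out. This gave 77 of the 43346 genes in the table, of which 50 encode proteins of the large subunit and 26 proteins of the small subunit. The remaining gene, Mrps36, carries the name of a ribosomal protein but is now assigned to the 2-oxoglutarate dehydrogenase complex. RNA sequencing was done on a cross-section of brain with hippocampus and cortex from 14 female mice aged 23 months, 1 library per mouse. NTG mice (n = 4) were non-transgenic littermates that drank vehicle, 0.1% PEG in water. APP/PS1 mice (n = 5, AD in the plots) carried mutant human APP and PS1 transgenes, given as APP/PS1 +/+ in the labels, and drank the same vehicle. CP2-treated APP/PS1 mice (n = 5, AD.CP2 in the plots) had the same genotype and received 25 mg/kg/day of CP2, a tricyclic pyrone that partially inhibits complex I of the respiratory chain, in the drinking water from 9 months of age. All mice had the strain label C57BL/6;SJL-Tg, and the labels list both vehicle groups as non-treated. Non-transgenic mice given CP2 were not analysed here, so the compound was compared only within the APP/PS1 genotype.

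Mitochondrial ribosomes translate the few proteins that the mitochondrial genome still encodes, all of them subunits of the respiratory chain and the ATP synthase. Their ribosomal RNAs come from the mitochondrial genome, while every protein of the particle is encoded in the nucleus, made in the cytosol and imported. Many members descend from bacterial ribosomal proteins and others were added in the mitochondrial lineage. Neurons depend heavily on oxidative phosphorylation, and inherited defects of several members (for example MRPS16, MRPS22, MRPS34, MRPL3 and MRPL44 in humans) cause combined respiratory chain deficiency. The 37 genes of the mitochondrial chromosome were listed with 0 counts in every mouse, so the ribosomal RNAs and the translated messages could not be followed.

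The members are spread over 17 chromosomes, and many sit beside another gene. Of the 76 members found by identifier in GENCODE M21 (GRCm38), 18 (23.7%) started head to head with a protein-coding gene on the other strand within 1000 bp, against 6.8% of all 21951 protein-coding genes. The RefSeq promoter table (GRCm38.p6) held 68 of the 77 members, and the 250 bases before each start were searched on both strands for 3 short motifs. TGCGCATGC, a motif of NRF1, was present in 6 members (8.8%) and in 1.5% of all 27025 genes with a promoter. CCGGAAG, a motif of ETS factors such as GABPA, was present in 17 members (25.0%) and in 7.8% of all genes. AAGATGGC, a motif of YY1, was present in 4 members (5.9%) and in 1.8% of all genes. At least 1 of the 3 was present in 24 members (35.3%) and in 10.6% of all genes. These are matches of letters, and the binding of any factor was not measured. The median GC content of the 250 bases was 58.2% for the members and 52.4% for all promoters. Its part in the shares with a motif was not tested. The stretches upstream of 3 members that recur below are shown 5′ to 3′ on the strand of the member, ending at the base before its RefSeq start, with a motif in capitals. The stretch of Mrps12 (minus strand, chr7:28741822-28741967) is the whole gap of 146 bases to the RefSeq start of its neighbour Sars2, and within this gap none of the 3 motifs was found. The YY1 motif counted for Mrps12 among the 4 members above lies farther upstream, beyond the RefSeq start of Sars2. That of Mrps27 (plus strand, chr13:99344706-99344785) is the gap of 80 bases to Ptcd2, with the ETS motif starting 48 bases before the start. That of Mrpl20 (plus strand, chr4:155802628-155802877) has no head-to-head neighbour and held no motif.
Mrps12: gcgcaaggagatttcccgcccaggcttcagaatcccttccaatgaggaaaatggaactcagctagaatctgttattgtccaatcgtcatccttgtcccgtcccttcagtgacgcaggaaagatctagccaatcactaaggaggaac
Mrps27: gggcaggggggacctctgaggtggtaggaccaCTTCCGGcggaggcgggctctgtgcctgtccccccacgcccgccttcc
Mrpl20: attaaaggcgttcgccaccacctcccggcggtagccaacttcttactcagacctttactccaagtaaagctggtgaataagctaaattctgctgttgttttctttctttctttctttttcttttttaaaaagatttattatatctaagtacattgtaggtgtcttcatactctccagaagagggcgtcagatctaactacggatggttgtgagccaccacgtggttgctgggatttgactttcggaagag

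Library totals ranged from 70548781 to 106235625 counts, and the lowest count of a member in any mouse was 493 (Mrpl23). Counting error was not separated from the spread between mice, and where the mice of a group lay very close together, as for Mrpl11 in NTG (coefficient of variation 0.59%) or Mrps9 in CP2-treated mice (1.32%), the spread is not a measure of either alone. Levels are given as CPM, the counts scaled to a common library size with TMM factors. All 77 members passed the filter on low counts in each comparison. The coefficient of variation between mice of a group had a median over the members of 6.43% in NTG, 5.84% in APP/PS1 and 5.91% in CP2-treated mice, against 7.64%, 9.25% and 7.25% over the 16521 genes that passed the filter in any group. Markers of neurons, astrocytes, oligodendrocytes, microglia and endothelium were counted in every mouse. In bulk tissue, fewer cells of a type and less RNA per cell cannot be told apart. APP/PS1 mouse 16 stood apart, with a summed level of striatal markers of 1933 CPM against 139 CPM in the lowest mouse of its group, and values that change without it are given beside the results. Without mouse 16 the members at an unadjusted p under 0.05 numbered 6 in APP/PS1 against NTG mice and 8 under CP2 against vehicle. The number of all genes called without mouse 16 is not given.

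Levels per length were compared with the RPKM values of the authors over all 14 mice. The highest were Mrpl41 at 31.1 ± 3.15, Mrpl52 at 30.6 ± 3.04 and Mrpl42 at 28.6 ± 2.84 RPKM (SD, n = 14), 3 proteins of the large subunit without a bacterial homologue. These neighbours in the order differed by less than their SD. The lowest were Mrpl15 at 2.29 ± 0.167, Mrps10 at 1.95 ± 0.243 and Mrps35 at 1.89 ± 0.135 RPKM. The 3 lowest have long annotated transcripts (8487, 8079 and 5543 bp, against a median of 1722 bp over the members), and the 3 highest short ones (888, 412 and 666 bp), so the order also carries the annotated length. Among the Mrps18 paralogues, Mrps18c of the small subunit stood at 11.1 ± 1.10 RPKM, Mrps18a, which sits in the large subunit, at 6.23 ± 0.305 RPKM and Mrps18b of the small subunit at 5.19 ± 0.511 RPKM. Mrps30, a protein of the large subunit in spite of its name, stood at 9.82 ± 0.636 RPKM, and Mrps36 at 6.77 ± 0.450 RPKM.

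**Figure D1:**
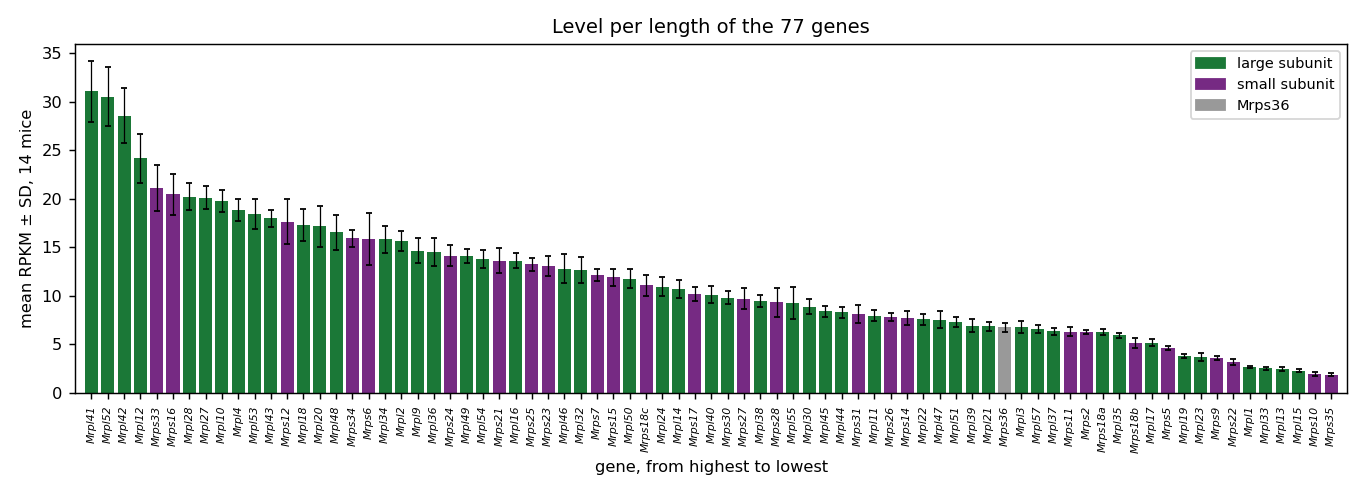
Mean RPKM of each of the 77 genes over 14 mice (y axis) in order of level (x axis), with bars coloured by subunit and error bars of 1 SD. Mrpl41, Mrpl52 and Mrpl42 stand near 30 RPKM, and Mrps35 is lowest at 1.89 RPKM.

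In APP/PS1 against NTG mice, which asks how the amyloid model differs from its littermates, 56 of 77 members had a lower level, against 51.2% of the 16417 genes tested. The differences were small, with a median log2 fold change of -0.041 over the members and -0.0042 over all genes. Among the members 1 passed an adjusted p of 0.05 (5.68% of all genes did, in either direction). At an unadjusted p under 0.05, the threshold of the study, 5 members were lower (8.05% of all genes) and 0 were higher (10.6% of all genes). The shares called were thus below those of all genes, and lower levels were more frequent among the members than among all genes. By subunit, 37 of 50 large-subunit and 19 of 26 small-subunit members were lower, with medians of -0.036 and -0.061.

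Mrps12, a protein of the decoding centre of the small subunit, was the member that passed (chr7:28739641-28741820, mm10). Its level was 26.4, 26.1, 26.9 and 25.6 CPM in NTG mice 7 to 10, and 24.3, 20.1, 17.6, 18.6 and 22.1 CPM in APP/PS1 mice 16 to 20. The NTG mice lay close together and every APP/PS1 mouse lay below them, mouse 16 nearest. The mean fell by 21.8%, from 26.3 ± 0.532 to 20.5 ± 2.70 CPM (log2 fold change -0.35, SE 0.089, adjusted p = 0.0474, edgeR). The call lay close to the threshold and was lost in 5 of 9 other settings and in 8 of 9 fits that left out 1 mouse, the exception being the fit without mouse 16 (adjusted p = 0.0049). Sars2, the mitochondrial seryl-tRNA synthetase that starts 172 bp away on the other strand, had a log2 fold change of 0.026 (SE 0.076, adjusted p = 0.899), with 7.61 to 9.01 CPM in NTG and 7.81 to 8.72 CPM in APP/PS1 mice.

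The other members with the smallest p did not pass the adjusted threshold. Mrpl48, a protein of the central protuberance, stood at 124, 151, 133 and 139.6 CPM in NTG and at 105, 125, 116, 111 and 118 CPM in APP/PS1 mice. Only NTG mouse 7 reached into the range of the APP/PS1 mice (log2 fold change -0.25, SE 0.068, adjusted p = 0.0608), and the gene passed with DESeq2, with limma-voom and without NTG mouse 7 or APP/PS1 mouse 17. Mrpl20, which binds the ribosomal RNA of the large subunit, stood at 45.2, 42.0, 37.0 and 35.7 CPM in NTG and at 32.0, 35.2, 33.8, 36.6 and 30.4 CPM in APP/PS1 mice. Its groups overlapped through NTG mouse 10 and APP/PS1 mouse 19 (log2 fold change -0.25, SE 0.082, adjusted p = 0.122). Mrpl12, the protein of the stalk that contacts translation factors, averaged 50.1 ± 2.96 CPM in NTG and 44.1 ± 3.66 CPM in APP/PS1 mice (log2 fold change -0.18, adjusted p = 0.174). Mrps27, a pentatricopeptide repeat protein of the small subunit, averaged 23.5 ± 1.85 and 20.5 ± 1.94 CPM (log2 fold change -0.20, adjusted p = 0.22), while its head-to-head neighbour Ptcd2 had a log2 fold change of 0.039 (adjusted p = 0.843). Mrps7, of the head of the small subunit, averaged 32.2 ± 1.21 and 30.0 ± 0.994 CPM (log2 fold change -0.10, adjusted p = 0.273). At the other end, Mrps6 had the highest log2 fold change of the members, 0.22 (SE 0.13, adjusted p = 0.398), and 19.9% of its exon bases are shared with other genes, among them Slc5a3.

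**Figure D2:**
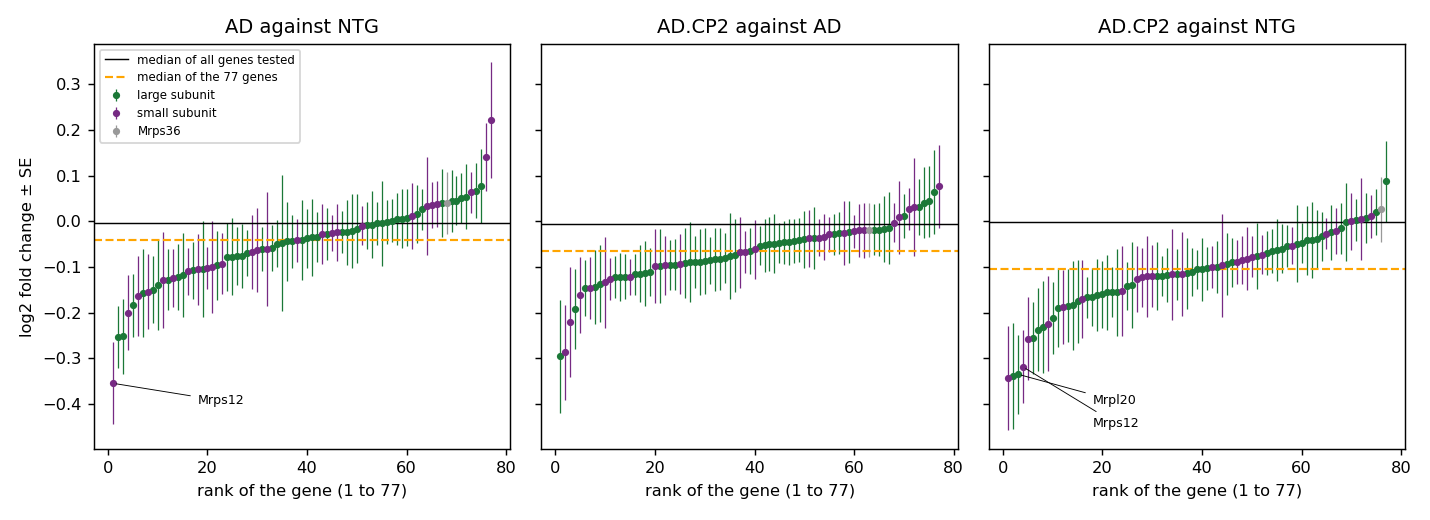
Log2 fold change ± SE (y axis) of the 77 genes in each comparison, ranked within each panel (x axis) and coloured by subunit, with the median of the members dashed and the median of all genes tested solid. The members' medians of -0.041, -0.065 and -0.11 lie below those of all genes, and labels mark the members with an adjusted p under 0.05.

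Under CP2 against vehicle within the APP/PS1 genotype, which asks what the compound does in the model, 68 of 77 members had a lower level, against 52.5% of the 16407 genes tested. The median log2 fold change was -0.065 over the members and -0.0060 over all genes. No member passed the adjusted threshold in edgeR (0.00609% of all genes did), DESeq2 or limma-voom, and the smallest adjusted p of a member in edgeR was 0.744. At an unadjusted p under 0.05, 9 members were lower (3.66% of all genes) and 0 were higher (2.88% of all genes). The share of members lower at this threshold was thus above that of all genes. These were Mrps9, Mrps28, Mrps17, Mrpl28, Mrpl38, Mrpl24, Mrpl55, Mrpl13 and Mrpl11. The number was 4 without CP2-treated mouse 25, 5 without mouse 24 and 13 without APP/PS1 mouse 20. It was 2 with the share of ribosomal RNA-like counts as a covariate. How many of all genes were called in these other fits is not given. The ribosomal RNA-like share moved with the groups, with overlapping ranges. Its means were 5.65 ± 1.28% of counts in NTG, 3.82 ± 1.29% in APP/PS1 and 5.24 ± 1.22% in CP2-treated mice. The part of this share in the difference was not tested beyond the covariate. By subunit, 45 of 50 large-subunit and 22 of 26 small-subunit members were lower.

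Mrps9, of the head of the small subunit, had the smallest p of the members (unadjusted p = 0.0108). It stood at 26.2, 26.2, 24.3, 25.3 and 25.1 CPM in vehicle-treated mice 16 to 20 and at 23.6, 23.3, 23.4, 23.1 and 23.9 CPM in CP2-treated mice 21 to 25. Every CP2-treated mouse lay below every vehicle-treated APP/PS1 mouse, by a small margin (log2 fold change -0.12, SE 0.040). The NTG mice, at 25.1, 24.4, 23.8 and 24.1 CPM, lay between and overlapped both. Mrps28, also of the small subunit, stood at 9.22, 10.55, 9.01, 10.3 and 7.69 CPM in vehicle-treated and at 7.69, 8.61, 8.22, 7.45 and 6.48 CPM in CP2-treated mice. Vehicle-treated mouse 20 lay among the CP2-treated mice and the other 4 above them all (log2 fold change -0.29, SE 0.10, unadjusted p = 0.0176). Mrpl55 of the central protuberance had a difference of the same size (log2 fold change -0.30, SE 0.12), between 12.3 ± 2.14 and 10.04 ± 1.05 CPM. The remaining members of the 9 differed by -0.12 to -0.15 on the log2 scale, among them Mrpl24 at the exit of the peptide tunnel, Mrpl38 of the central protuberance and Mrpl11 at the base of the stalk. Mrps12 stood at 19.2, 19.2, 24.8, 22.7 and 19.3 CPM in CP2-treated mice, and its range overlapped that of the vehicle-treated mice (log2 fold change 0.031, adjusted p = 0.958).

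In CP2-treated APP/PS1 against NTG mice, which asks what difference from littermates remained under treatment, 70 of 77 members had a lower level, against 50.6% of the 16416 genes tested. This comparison shares its mice with both others. The median log2 fold change was -0.11 over the members and -0.0015 over all genes. At an adjusted p under 0.05, 2 members were lower (6.02% of all genes, in either direction). At an unadjusted p under 0.05, 17 were lower (8.59% of all genes) and 0 were higher (11.6% of all genes). The members were thus below all genes in their share at the adjusted threshold and above them in their share lower at the unadjusted one. Of the 17, 13 belong to the large and 4 to the small subunit. The number was 28 without NTG mouse 10, 26 without CP2-treated mouse 23 and 11 without CP2-treated mouse 25. How many of all genes were called in these fits is not given.

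The 2 that passed were Mrps12 and Mrpl20. The mean of Mrps12 was 21.1 ± 2.58 CPM in CP2-treated mice, 19.8% below NTG, and the groups did not overlap (log2 fold change -0.32, SE 0.080, adjusted p = 0.0413, edgeR). Mrpl20 stood at 31.5, 35.2, 34.3, 29.3 and 28.3 CPM in CP2-treated mice 21 to 25, and its mean of 31.7 ± 3.02 CPM was 20.7% below the 40.0 ± 4.45 CPM of NTG mice. The highest CP2-treated mouse, 22, lay just below the lowest NTG mouse, 10 (log2 fold change -0.33, SE 0.086, adjusted p = 0.0452). With 1 mouse left out, the call of Mrps12 held only without CP2-treated mouse 23 (highest adjusted p = 0.109) and that of Mrpl20 only without NTG mouse 10 or CP2-treated mouse 22 or 23 (highest adjusted p = 0.126). Mrpl11 lay just outside the threshold, with NTG mice between 29.2 and 29.6 CPM and CP2-treated mice between 24.9 and 27.8 CPM (log2 fold change -0.17, SE 0.044, adjusted p = 0.0512). Mrpl12 stood at 53.8, 51.1, 47.5 and 47.9 CPM in NTG and at 44.9, 46.4, 43.7, 39.6 and 35.2 CPM in CP2-treated mice, again without overlap (log2 fold change -0.25, SE 0.078, adjusted p = 0.0900). For Mrpl12, 13.1% of the exon bases are shared with the annotated gene Gm16755. Mrps28 (log2 fold change -0.34, adjusted p = 0.118) and Mrpl55 (log2 fold change -0.34, adjusted p = 0.126) had larger differences with more spread, and NTG mouse 7 was highest in both.

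**Figure D3:**
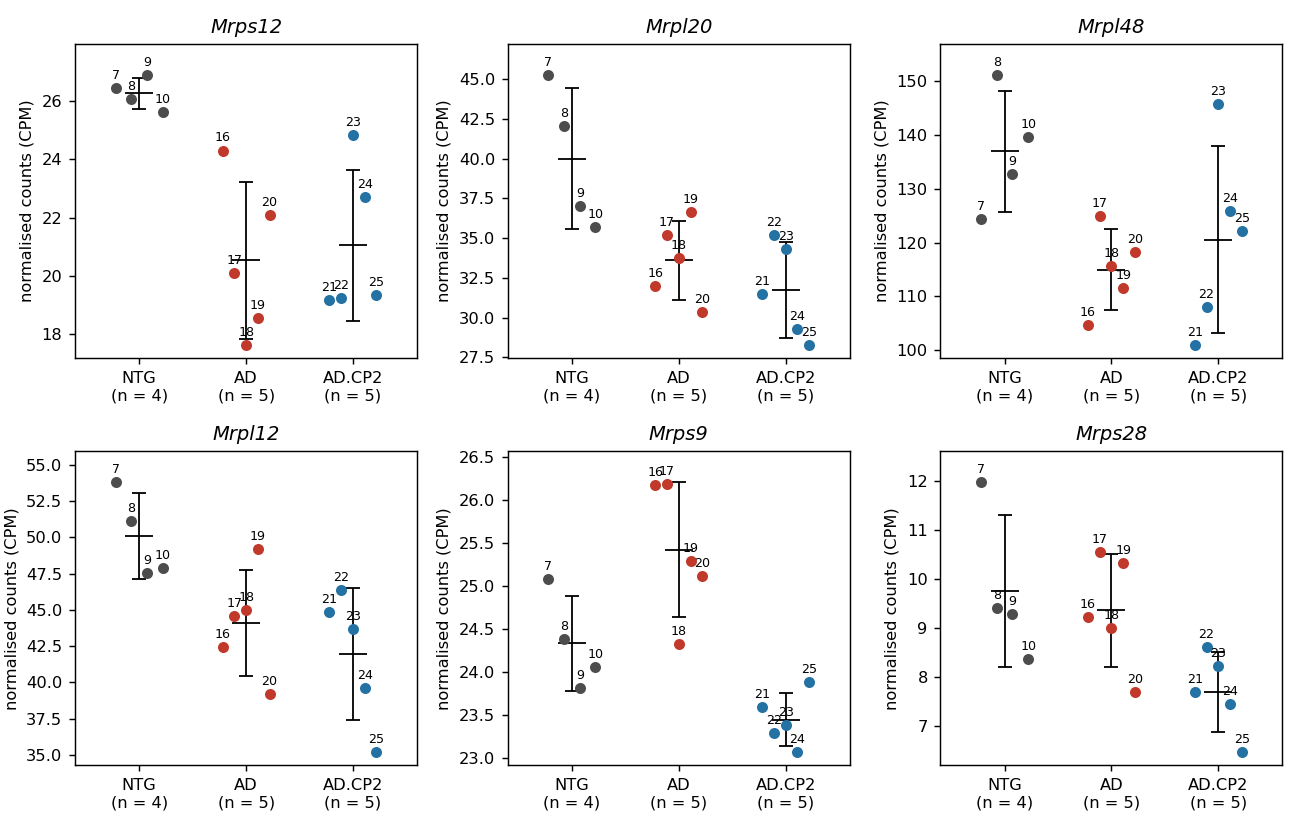
Normalised counts (CPM, y axis) of 6 members in each mouse, by group (x axis), with the number of the mouse at each point and bars for the mean ± SD. NTG mice lie above all mice of both APP/PS1 groups for Mrps12, and CP2-treated mice lie below all vehicle-treated APP/PS1 mice for Mrps9.

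Parts of the particle were read against the 51.2%, 52.5% and 50.6% of all genes that were lower in the 3 comparisons. All 5 members of the stalk and its base (Mrpl10, Mrpl11, Mrpl12, Mrpl53 and Mrpl54) were lower in each comparison. In the order in which the comparisons were described, 1, 1 and 2 of them had an unadjusted p under 0.05. Of all genes, 8.05%, 3.66% and 8.59% were lower at this threshold. Some values lay close to 0, with Mrpl10 at -0.0044 in APP/PS1 against NTG mice. Under CP2 against vehicle, Mrpl53 stood at -0.015 and Mrpl54 at -0.016. For Mrpl53, 88.0% of the exon bases are shared with other genes. At the tunnel exit, where the chain emerges and the ribosome meets the inner membrane, 2, 6 and 5 of 6 members were lower, so that in APP/PS1 against NTG mice more of them were higher than lower (median log2 fold change 0.031). Mrpl45, which tethers the ribosome to the membrane, averaged 26.1 ± 0.915 CPM in NTG mice, 26.9 ± 1.41 CPM in APP/PS1 mice and 26.2 ± 0.994 CPM under CP2. In the central protuberance 6, 6 and 7 of 7 members were lower. Members with a bacterial homologue in the large subunit were lower in 23, 27 and 29 of 30 cases, and those without in 14, 18 and 17 of 20. In the small subunit the counts were 10, 14 and 14 of 16 with a homologue and 9, 8 and 10 of 10 without. The 5 members named above for human deficiencies did not pass in any comparison. In CP2-treated mice against NTG mice, Mrps16 had a log2 fold change of -0.15, Mrps22 of -0.12, Mrps34 of -0.088, Mrpl44 of -0.12 and Mrpl3 of 0.088, the highest of all members. Mrps36, which is no part of the ribosome, had log2 fold changes of 0.040, -0.019 and 0.026, and Mrps30 of 0.052, -0.049 and 0.0072.

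Overlapping genes touch some of these values, since a read was counted on each gene that it overlapped and the libraries do not mark strand. GENCODE M21 gives the same start and end as the table for 49 of the 77 members, so its overlaps may not be those of the genes as counted. In it more than 10% of the exon bases were shared with another gene in 18 members and more than 50% in 3, Mrpl53, Mrps34 and Mrps25. Among the 45 members without shared exon bases, 33, 43 and 42 were lower, and Mrps12, Mrpl20, Mrps9 and Mrps28 belong to them. Of the 18 members that start head to head with another gene 16, 15 and 18 were lower, and of the 16 partners tested 6, 12 and 9. Pnpla7 passed in APP/PS1 against NTG mice, a lysophospholipase (log2 fold change 0.41, adjusted p = 0.0184), beside Mrpl41 at -0.016. The difference between members and partners was not tested.

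Other parts of mitochondrial translation were read from lists. Of 6 further proteins of the ribosome that do not carry the Mrp name, 5, 3 and 5 were lower. At an unadjusted p under 0.05, 3, 0 and 5 of them were lower, against 8.05%, 3.66% and 8.59% of all genes. Gadd45gip1, a large-subunit protein, passed in CP2-treated against NTG mice (log2 fold change -0.23, SE 0.061, adjusted p = 0.0483). Aurkaip1 of the small subunit had log2 fold changes of -0.26 in APP/PS1 and -0.22 in CP2-treated mice against NTG mice (adjusted p = 0.0554 and 0.0655). Of 21 factors of assembly and ribosomal RNA modification 0 passed the adjusted threshold. At an unadjusted p under 0.05, 2, 0 and 1 of them were called, all lower (8.05%, 3.66% and 8.59% of all genes). Of 20 mitochondrial tRNA synthetases and related enzymes 0 passed. At an unadjusted p under 0.05, 1 was higher, 1 lower and 1 higher (10.6%, 3.66% and 11.6% of all genes in these directions). Of 9 genes that transcribe and copy the mitochondrial genome 0 passed either threshold.

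In sum over the members, the level averaged 2096 ± 70.7 CPM in NTG mice, 2012 ± 66.5 CPM under vehicle in APP/PS1 mice and 1942 ± 74.8 CPM under CP2. The ranges overlapped, at 2023 to 2176, 1923 to 2079 and 1837 to 2034 CPM. Within each group some mice were the highest or lowest for many of the members. Correlation between members was not computed, and mouse 7 was also the lowest NTG mouse for 9 members. Mouse 7 was the highest NTG mouse for 45 of the 77 members and mouse 10 the lowest for 39, mouse 20 was the lowest APP/PS1 mouse for 37, and mouse 25 was the lowest CP2-treated mouse for 52 and mouse 23 the highest for 34. Without NTG mouse 7 the median log2 fold change of the members in APP/PS1 against NTG mice was -0.012, with 44 of 77 lower, and without APP/PS1 mouse 20 it was -0.022. Without CP2-treated mouse 25 the median against vehicle-treated mice was -0.040. After a trend with annotated gene length was removed from each mouse, the medians of the 3 comparisons were -0.026, -0.037 and -0.080.

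**Figure D4:**
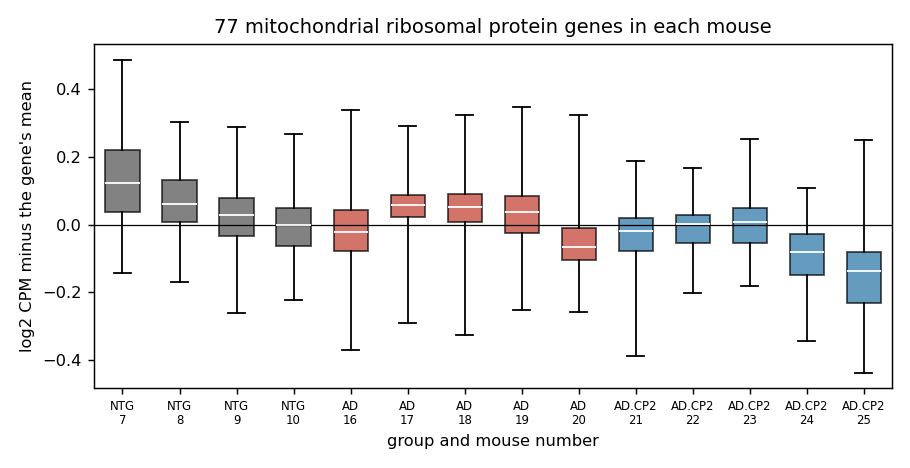
Log2 CPM of the 77 genes in each mouse minus the mean of the gene over 14 mice (y axis), by group and mouse (x axis), with boxes from the lower to the upper quartile, a white line at the median and whiskers to the extremes. The median of mouse 7 is the highest, and those of mice 20, 24 and 25 are the lowest.

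Nuclear subunits of complex I, the target of CP2, and cytosolic ribosomal proteins were read beside the members. Of 36 complex I subunits 34, 34 and 36 were lower, with medians of -0.094, -0.097 and -0.18. At an unadjusted p under 0.05, 7, 2 and 23 of them were lower, against 8.05%, 3.66% and 8.59% of all genes. Of 78 cytosolic ribosomal proteins tested, 60 were higher in APP/PS1 than in NTG mice (median 0.058), 75 were lower under CP2 than under vehicle (median -0.18) and 69 were lower in CP2-treated than in NTG mice (median -0.10). At an unadjusted p under 0.05, 13 were higher in APP/PS1 mice (10.6% of all genes) and 36 were lower with CP2 (3.66% of all genes). Between CP2-treated and NTG mice 4 were lower at this threshold (8.59% of all genes). Of the 78, 0 passed the adjusted threshold in any comparison. In the sums of both lists, as in that of the members, mouse 7 was the highest and mouse 10 the lowest of the NTG mice, mouse 20 the lowest APP/PS1 mouse, and mouse 23 the highest and mouse 25 the lowest CP2-treated mouse. Microglial markers differed between the groups. All 7 were higher in APP/PS1 than in NTG mice at an adjusted p under 0.05 (5.68% of all genes, in either direction). Their summed levels were 327 to 347 CPM in NTG mice, 609 to 806 CPM under vehicle and 503 to 754 CPM under CP2, and none was at 0 in any mouse. The 5 blood markers were higher in both APP/PS1 groups than in NTG mice, 2 and 1 of them at an adjusted p under 0.05 (5.68% and 6.02% of all genes, in either direction). The sums of the 5 markers were 82.5 to 151 CPM in NTG, 113 to 472 CPM in APP/PS1 and 136 to 443 CPM in CP2-treated mice. Of 8 neuronal markers 7, 3 and 6 were lower in the 3 comparisons, with 1, 0 and 3 at an unadjusted p under 0.05 (8.05%, 3.66% and 8.59% of all genes). The sums of the 8 markers were 5027 to 5769 CPM in NTG, 4677 to 5715 CPM in APP/PS1 and 4881 to 5639 CPM in CP2-treated mice. Of 6 endothelial markers 5, 4 and 5 were higher, with 2, 0 and 5 at an unadjusted p under 0.05 (10.6%, 2.88% and 11.6% of all genes). At an adjusted p under 0.05, 1, 0 and 4 were higher (5.68%, 0.00609% and 6.02% of all genes, in either direction). The sums of the 6 markers were 154 to 162, 152 to 226 and 173 to 197 CPM. All 8 thalamic markers were lower in APP/PS1 than in NTG mice (median log2 fold change -0.49) and higher under CP2 than under vehicle (0.52). At an unadjusted p under 0.05, 1 of them was lower in APP/PS1 than in NTG mice (8.05% of all genes). With CP2 3 of them were higher than under vehicle (2.88% of all genes). All 7 striatal markers were higher and lower, respectively. Between CP2-treated and NTG mice 4 of 8 and 2 of 7 were lower. Mouse 16 had the highest striatal and, at 233 CPM, the lowest thalamic sum of all mice. The part of the makeup of the tissue and of RNA quality in the members' levels was not tested.

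**Figure D5:**
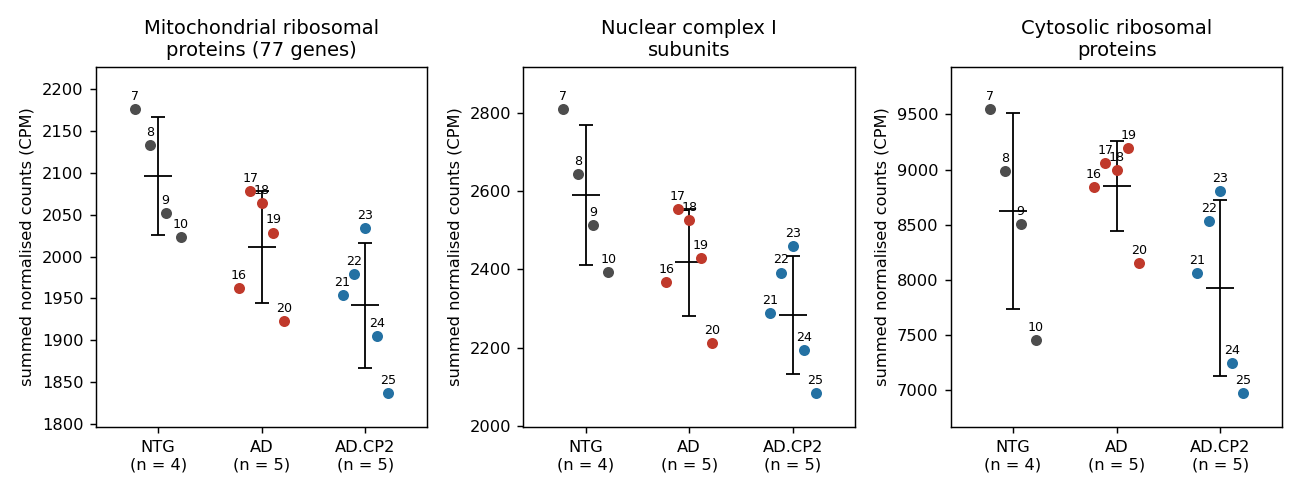
Summed normalised counts (CPM, y axes that do not start at 0) of the 77 mitochondrial ribosomal protein genes, of nuclear complex I subunits and of cytosolic ribosomal proteins in each mouse, by group (x axis), with bars for the mean ± SD. Mice 7, 10, 20, 23 and 25 hold the same places within their groups in the 3 panels.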

How the data were processed

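RNA from brain tissue of 14 mice was sequenced with TruSeq RNA v2 libraries. TopHat2 was used by the authors for alignment to mm10, and FeatureCounts for counting on Ensembl genes, where a read went to each gene that it touched. Read counts were deposited without normalization, beside RPKM values that the authors computed from counts and annotated gene length. RPKM was used only to compare levels between genes. The strand setting and the Ensembl release are not given in the sources used here. Mice were grouped by their labels, and same-group libraries were checked for duplicates (26 pairs, lowest chi-square per degree of freedom 9.87).

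Each comparison was fitted on its 2 groups with edgeR 4.0.16 (TMM, glmQLFit, glmQLFTest, Benjamini-Hochberg over all genes tested) in R 4.3.3, in place of the DESeq2 of the study. The filter kept a gene with a value above 1 on the robust CPM scale of DESeq2 throughout at least 1 of the 2 groups. Standard errors are those implied by the test statistic. P-values test the difference between groups against the spread between mice, counting error included. Alternatives were DESeq2 1.42.0, RLE and upper-quartile factors, no filter, a minimum of 10 counts per mouse, a joint fit of the 3 groups, limma-voom (limma 3.58.1) with quality weights, the log2 share of the ribosomal RNA-like genes Yam1 and AY036118 (2.4 to 7.5% of counts) as a covariate, removal of a lowess trend with gene length, and each mouse left out. The procedure was run on simulated data whose changes were larger than any difference of a member. Its recovery of differences as small as those of the members was not examined. Promoters and neighbours were read with Python 3.11.15 and pandas 2.3.3, and plots were drawn with matplotlib 3.10.9.

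Named members are those with an adjusted p under 0.05 in any comparison, the 6 with the smallest p in each, the 3 highest and 3 lowest by RPKM, and members chosen by role. Others, such as Mrps6, Mrpl13 and the partners of head-to-head pairs, were named after their values were seen. The members and lists were chosen with earlier results of these data known. The list of mitochondrial translation factors is not reported here.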

Additional observations from a re-analysis of the deposited data

Results flagged for a closer look

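Levels of the 33 named members and their sum were examined for a mouse far from the others of its group, in 102 groups of mice, and 7 such values were found, where chance gives about 5 in 100. Mrpl15 was 21.3 CPM in NTG mouse 10, below the 23.8 to 24.3 CPM of the others, and 22.3 CPM in APP/PS1 mouse 20, below 24.7 to 25.3 CPM. Mrpl24 was 34.6 CPM in NTG mouse 7, above 28.2 to 28.7 CPM, and 28.5 CPM in APP/PS1 mouse 20, below 31.2 to 32.3 CPM. Mrpl28 was 34.8 CPM in APP/PS1 mouse 17, above 31.1 to 31.9 CPM. Mrpl3 was 43.2 CPM in APP/PS1 mouse 19, below 49.5 to 51.2 CPM. Mrpl55 was 16.03 CPM in NTG mouse 7, above 11.5 to 11.8 CPM. The cause was not tested.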

How the results depend on the processing

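The count of members with an adjusted p under 0.05 in APP/PS1 against NTG mice was 2 with DESeq2 and with limma-voom and 0 with RLE factors, no filter, at least 10 counts in every mouse, the ribosomal RNA-like share as a covariate or the length trend removed. At an unadjusted p it was 8 with limma-voom and 2 with the covariate. In CP2-treated against vehicle-treated mice the count at an unadjusted p was 2 with the covariate. In CP2-treated against NTG mice the count at an adjusted p was 5 with DESeq2 and 1 with upper-quartile factors, no filter, all 3 groups in one fit, the covariate or the length trend removed. With 1 mouse left out, the adjusted counts ranged from 0 to 1, 0 to 0 and 0 to 3, the unadjusted from 4 to 7, 4 to 13 and 11 to 28, the number of lower members from 44 to 59, 64 to 71 and 66 to 72, and the medians from -0.058 to -0.012, -0.085 to -0.040 and -0.13 to -0.077. Single members were followed through these settings only in the comparisons where they had the smallest p. No sign of these followed differences turned. Whether the signs of the other named differences turned, among them those close to 0, was not tested. Among the values of the members followed, 10 lost the adjusted call and 7 gained it in the 9 other settings. With a mouse left out 22 lost it and 3 gained it. CPM per kilobase in place of RPKM kept the ranks of the 3 highest and 3 lowest members, at higher values (Mrpl41 at 37.8 against 31.1). Both measures divide the same counts by annotated length, so this is no independent check of the ranks. The causes were not tested. No paired analysis was possible because the groups share no replicate numbers. The lowest count of a member was 493, and counting error was not separated from the spread between mice.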
